A study of Mus musculus with 14 samples.

Results

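Plasma proteins of blood clotting and of complement are made mainly by the liver, and 46 genes of these systems were followed in the livers of sleep-deprived and control mice. They were chosen with earlier results of these data known. By function, 23 belong to coagulation and fibrinolysis, 21 to complement, and 2, Serping1 and Vtn, act in both. Of the 46 genes, 41 had a probe set with a single gene symbol and were measured, out of 22180 genes in all. Klkb1 and Masp2 share their probe sets with other genes, and these, Cpb2, C3 and Cfd are not analysed here. The arrays, 14 in number, held liver RNA from male mice of the inbred strain C57BL/6J, 7 of a sleep deprivation group (mice 1, 2, 3, 5, 6, 10 and 13) and 7 controls (mice 4, 7, 8, 9, 11, 12 and 14). The study's title gives the deprivation as a single one of 6 h, asked about for its effect on glucose tolerance and liver fat. Gentle handling, changes of cage and a platform over water are all described, and the labels do not say which was used for these livers, nor the age, feeding state or time of day. The values are log2 expression from RMA, which corrects background, equalises the arrays and summarises the probes of each gene.

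Coagulation proceeds through serine proteases that circulate as inactive precursors and activate each other until thrombin turns fibrinogen into fibrin. Antithrombin, the protein C system and other inhibitors restrain it, and plasmin dissolves the clot. Complement is a related protease cascade, started by antibodies, by lectins or on surfaces directly, that labels microbes and ends in a pore made by its terminal components. Hepatocytes secrete most of these proteins. Factor VIII comes mainly from endothelial cells in mice, properdin from leukocytes, and CD55 and CD59 sit on cell membranes.

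Of the 41 coagulation and complement genes, 11 fell in the livers of the sleep-deprived mice, 1, the terminal complement gene C6, rose, and 29 did not pass the test (limma, adjusted p under 0.05, two-sided). The genes that fell included those for alpha2-antiplasmin (Serpinf2), a factor XIII subunit (F13b) and complement C2, and the 3 fibrinogen genes did not pass. Thus 29.3% of the members were called, against 8.5% of all genes, with 4.62% of all genes lower and 3.88% higher. In all, 34 of the 41 differences were below 0, and the median was -0.082, against -0.0048 over all genes. Every one of the 41 differences was smaller than 1.5-fold, as were 98.7% of the differences of all genes. The 12 called differences ran from -0.36 to 0.32 on the log2 scale.

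**Figure D1:**
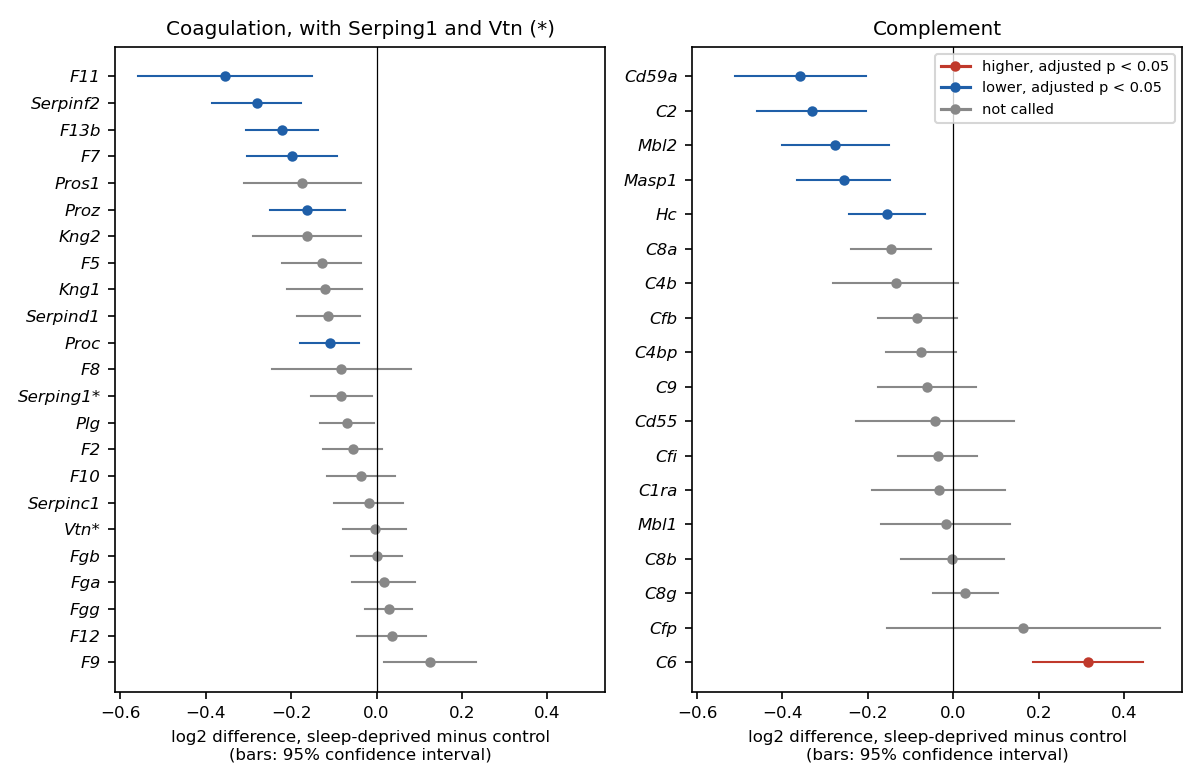
Log2 difference between sleep-deprived and control livers for each of the 41 genes, with bars for the 95% confidence interval from limma (7 mice per group). Blue and red mark genes past the threshold; most points lie left of 0, and C6 alone is called to the right.

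The share called was also set beside that of genes of like brightness. Of the members, 36 had a mean level of at least 8 on the log2 scale, a limit set after the data were seen. Among all 1780 genes that bright, 26.6% were called, 15.8% as lower and 10.8% as higher, beside 33.3% of the 36 members. Among the 386 genes with a mean of at least 10, the share was 24.9%, beside 18.5% of 27 members. The share of members called in either direction was therefore near that of other bright genes. At a mean of 8 or more, 11 of the 36 members were called lower and 1 higher, beside 15.8% and 10.8% of the bright genes. At 9 or more, 9 of 33 members were lower and 1 higher, beside 17.1% and 9.85% of the genes. At 10 or more, 4 of 27 members were lower and 1 higher, beside 15.3% and 9.59% of the genes. In direction, 30 of the 36 members were below 0, against 54.8% of the 1780 bright genes, and their median was -0.083, against -0.015. From a mean of 10 upward, 21 of 27 members were below 0, against 61.1% of the 386 genes, with medians of -0.062 and -0.025. Whether the direction differs from that of other bright genes was not tested, since the members were picked with earlier results known.

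**Figure D2:**
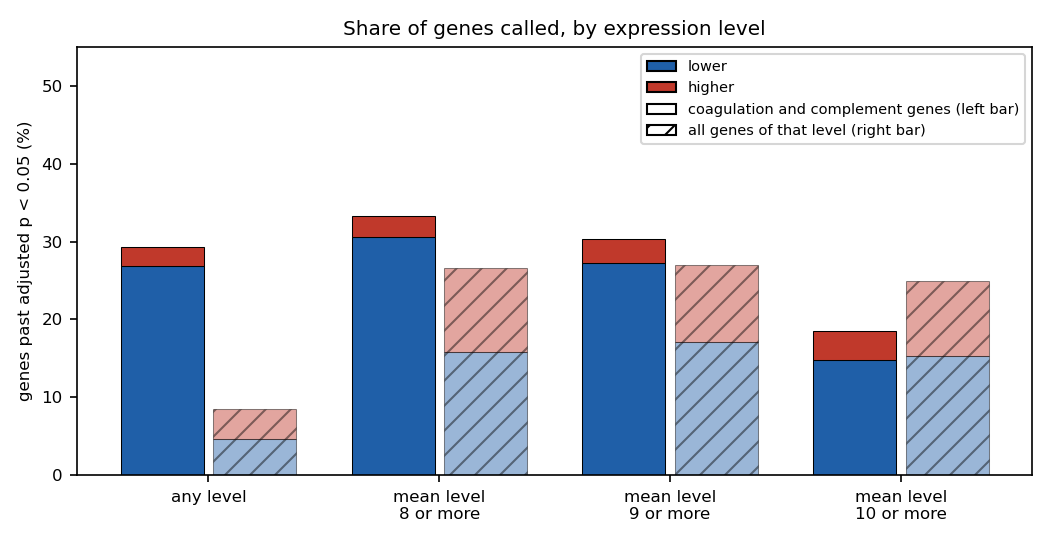
Percentage of genes past an adjusted p of 0.05, split into lower (blue) and higher (red), for the coagulation and complement genes (left bars) and all genes of the same minimum level (hatched right bars). Over all levels the shares are 29.3% and 8.5%, and from a mean level of 8 upward the bars come close in total height. The lower part at 8 or more is 11 of 36 members, beside 15.8% of the genes.

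Of 21 coagulation genes, 6 fell and 0 rose, with a median log2 difference of -0.11. Of 18 complement genes, 5 fell and 1 rose, with a median of -0.069. Thus 28.6% and 33.3% were called, against 8.5% of all genes and 26.6% of the genes with a mean of at least 8. An unadjusted p under 0.05 was found for 13 of the 21 and 7 of the 18, beside 4293 of all 22180 genes. That count was not taken for bright genes alone. Serping1 and Vtn were not called. The difference between the classes was not tested. For each mouse the median deviation of the coagulation genes from the control mean lay between -0.12 and -0.019 in the sleep-deprived mice and between -0.016 and 0.041 in the controls. All 7 sleep-deprived mice were thus below all controls, mouse 13 by a small margin. This separation is a description and was not tested, since the genes were chosen with earlier results of these data known. For complement the range was -0.19 to 0.012 in sleep-deprived mice and -0.086 to 0.053 in controls, and the groups overlapped. The median of all genes moved between -0.012 and 0.00078 in sleep-deprived mice and between -0.017 and 0.0084 in controls. Most of those genes are dimmer than the members, and no median per mouse was taken over bright genes alone.

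**Figure D3:**
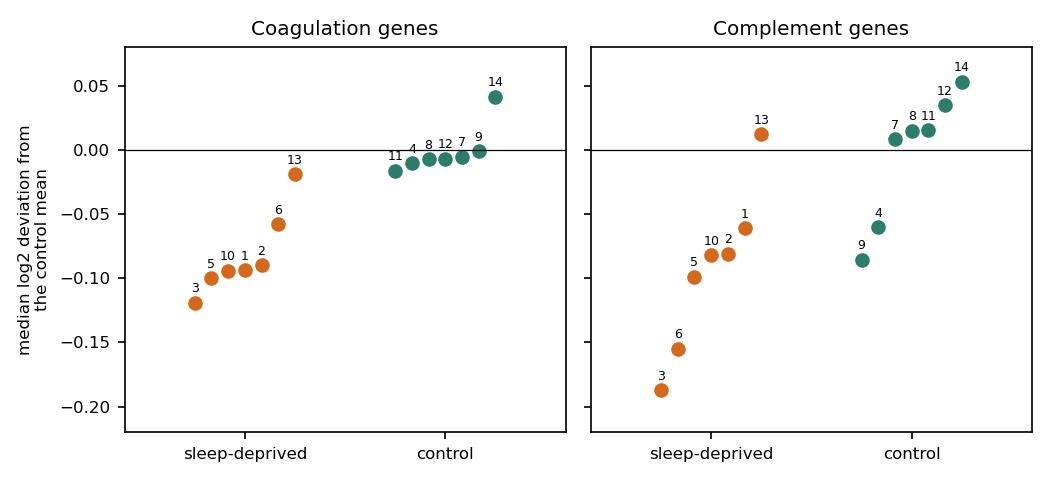
Median log2 deviation from the control mean over 21 coagulation genes (left) and 18 complement genes (right), 1 numbered point per mouse. Sleep-deprived mouse 13 is the highest of its group in both classes, and control mice 4, 7 and 9 lie below it for complement.

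Among clotting enzymes and cofactors, 2 of 7 genes fell. F13b encodes the carrier subunit of factor XIII, which cross-links fibrin (probe set 17217946). Its log2 level had a lowest, median and highest value of 9.28, 9.38 and 9.45 in sleep-deprived mice, against 9.54, 9.61 and 9.67 in controls. The groups did not overlap. The difference was -0.22 ± 0.040 (limma's moderated SE, as for all differences here; n = 7 each), and F13b fell by 14.2% (limma, adjusted p = 0.00111). F7 encodes factor VII, which starts coagulation together with tissue factor (probe set 17499212). It had values of 9.66, 9.82 and 10.04 in sleep-deprived mice, against 9.96, 10.05 and 10.07 in controls, and 6 of the 7 sleep-deprived mice were below every control. Mouse 6 of the sleep-deprived group was the exception. The difference was -0.20 ± 0.050 (limma, adjusted p = 0.0159).

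The other 5 clotting factors did not pass. F5, the cofactor of factor Xa, had values of 10.84, 10.97 and 11.07 in sleep-deprived mice, against 10.98, 11.09 and 11.22 in controls, with 4 sleep-deprived mice below all controls (-0.13 ± 0.044, limma adjusted p = 0.0862). F2, which encodes prothrombin, had values of 11.61, 11.74 and 11.79 in sleep-deprived mice, against 11.74, 11.78 and 11.85 in controls, and was at -0.056 ± 0.033 (limma, adjusted p = 0.405), and F10, which encodes factor X, at -0.037 ± 0.038 (adjusted p = 0.695). F9 encodes factor IX, the enzyme deficient in haemophilia B, and pointed the other way, at 0.13 ± 0.052 (adjusted p = 0.165). Its values were 10.54, 10.60 and 10.79 in sleep-deprived mice, against 10.39, 10.55 and 10.64 in controls. F9 passed, at 0.19 (adjusted p = 0.0137), when the sample number was a covariate. F8 encodes factor VIII, deficient in haemophilia A, and was at -0.083 ± 0.078 (adjusted p = 0.655).

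F7, F10 and Proz stand next to each other on chromosome 8, with no protein-coding gene between them in RefSeq. F7 and Proz fell by 0.20 and 0.16 on the log2 scale, while F10 between them was not called. The interval of the F10 difference ran from -0.12 to 0.043, and the differences between these neighbours were not tested. Proz encodes protein Z, the cofactor of an inhibitor of factor Xa (probe set 17499240). Its values were 10.29, 10.39 and 10.53 in sleep-deprived mice, against 10.46, 10.59 and 10.63 in controls, with 5 sleep-deprived mice below all controls (-0.16 ± 0.042, limma adjusted p = 0.0172). The calls of F7 and Proz were lost without the intensity trend in limma (adjusted p = 0.0511 and 0.0749) and with the sample number as a covariate (0.0689 and 0.0629).

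The fibrinogen genes, which encode the alpha, beta and gamma chains of the fibrin precursor and lie side by side on chromosome 3, were not called. Fga had log2 levels of 11.42, 11.54 and 11.63 in sleep-deprived mice, against 11.47, 11.51 and 11.60 in controls. Fgb had 12.51, 12.54 and 12.64 in sleep-deprived mice, against 12.53, 12.56 and 12.61 in controls. Fgg had 12.43, 12.46 and 12.52 in sleep-deprived mice, against 12.42, 12.44 and 12.49 in controls. The groups overlapped in all 3 genes, and 0 of 3 had an unadjusted p under 0.05. The 95% confidence intervals of the differences were -0.057 to 0.091 for Fga, -0.061 to 0.061 for Fgb and -0.027 to 0.084 for Fgg. Differences beyond 0.091 in either direction thus lay outside all 3 intervals. The chains are among the brightest genes of the arrays, whose highest values were between 13.3 and 13.4, and bright probes can understate a change.

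In the contact system, which starts clotting on charged surfaces and releases bradykinin, 1 of 4 measured genes fell. F11, the precursor of factor XIa (probe set 17509035), had values of 8.82, 9.21 and 9.61 in sleep-deprived mice, against 9.48, 9.53 and 9.78 in controls. The sleep-deprived mice were widely spread: 5 of 7 were below all controls, while mouse 2 stood at 9.61 and mouse 6 at 9.48, inside the control range. The difference was -0.35 ± 0.098, and F11 fell by 21.8% (limma, adjusted p = 0.0260). That call was lost without sleep-deprived mouse 1 (0.0645), 10 (0.0554) or 13 (0.0556), without control mouse 8 (0.0589) or 12 (0.0599), with every probe set tested (0.0838) and with quantile normalization applied again (0.0542). Kng1 and Kng2 encode kininogens, the source of bradykinin. They were at -0.12 ± 0.042 and -0.16 ± 0.060 (limma, adjusted p = 0.0870 and 0.116). The kininogen genes are close copies, so their probes may share signal. F12, which encodes factor XII, was at 0.035 ± 0.038 (adjusted p = 0.711).

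Of the anticoagulant genes, 2 of 5 fell and the other 3 were below 0. Besides Proz this was Proc, the precursor of activated protein C, which cleaves factors Va and VIIIa (probe set 17353320). Proc had values of 10.97, 11.03 and 11.13 in sleep-deprived mice, against 11.10, 11.15 and 11.21 in controls, and 6 of 7 sleep-deprived mice were below all controls. The difference was the smallest among the called members, -0.11 ± 0.033, and Proc fell by 7.34% (limma, adjusted p = 0.0416). Proc was called in 7 of 23 other fits. When single mice were left out, the call held without sleep-deprived mouse 13 (0.0221) or control mouse 12 (0.0375) and was lost without any of the other 12 (adjusted p from 0.0561 to 0.0949). It was also lost without the trend (0.2), after centring the arrays (0.122), after quantile normalization (0.0516) and with the sample number as covariate (0.125).

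Serpind1 encodes heparin cofactor II, an inhibitor of thrombin, and lay just outside the threshold. Its values were 10.74, 10.86 and 10.90 in sleep-deprived mice, against 10.86, 10.98 and 10.99 in controls (-0.11 ± 0.035, limma adjusted p = 0.0557, and 0.0267 without control mouse 7). The protein C cofactor Pros1 was at -0.17 ± 0.066 (adjusted p = 0.121). Serpinc1, which encodes antithrombin, was at -0.019 ± 0.038 (adjusted p = 0.869), with an interval of -0.099 to 0.061.

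Fibrinolysis held the smallest adjusted p of all members. Serpinf2 encodes alpha2-antiplasmin, the main inhibitor of plasmin (probe set 17265976). Its values were 10.72, 10.87 and 11.07 in sleep-deprived mice, against 11.09, 11.15 and 11.22 in controls, with no overlap. The difference was -0.28 ± 0.050, and Serpinf2 fell by 17.6% (limma, adjusted p = 0.000914). Sleep-deprived mice 1, 10 and 13 had the lowest values of Serpinf2, and the same mice had the lowest values of F11. Plg, which encodes plasminogen, the precursor of the enzyme that Serpinf2's product inhibits, had values of 11.99, 12.04 and 12.09 in sleep-deprived mice, against 12.04, 12.10 and 12.16 in controls. Its difference of -0.070 ± 0.030 missed the threshold (limma, adjusted p = 0.195).

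The proteins that act in both systems were not called. Serping1 encodes the C1 inhibitor, which blocks the first complement proteases as well as kallikrein and factor XIIa, and was at -0.082 ± 0.034 (limma, adjusted p = 0.171). Vtn encodes vitronectin, an adhesion protein that also holds back the complement pore, and was at -0.0040 ± 0.035 (adjusted p = 0.973).

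In the lectin pathway, which recognises sugars on microbes, 2 of 3 measured genes fell. Masp1 encodes a protease that travels with the lectins (probe set 17329403). It had values of 9.19, 9.31 and 9.39 in sleep-deprived mice, against 9.39, 9.57 and 9.77 in controls. The groups met at 9.39, where the highest sleep-deprived mouse (mouse 1) and the lowest control (mouse 4) differed by less than the printed digits. The difference was -0.26 ± 0.052 (limma, adjusted p = 0.00306). Mbl2, a mannose-binding lectin (probe set 17358640), had 8.79, 8.91 and 9.10 in sleep-deprived mice, against 8.99, 9.17 and 9.34 in controls, with 5 sleep-deprived mice below all controls (-0.28 ± 0.060, limma adjusted p = 0.00496). Its relative Mbl1 had 8.73, 9.01 and 9.14 in sleep-deprived mice, against 8.81, 8.94 and 9.26 in controls, and was at -0.018 ± 0.072 (adjusted p = 0.939). The interval for Mbl1 ran from -0.17 to 0.13.

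C2 encodes the protease that joins C4b to form the C3-cleaving enzyme of the classical and lectin routes (probe set 17344086). It had values of 7.88, 7.98 and 8.12 in sleep-deprived mice, against 8.20, 8.26 and 8.57 in controls, with no overlap. The difference was -0.33 ± 0.061, and C2 fell by 20.5% (limma, adjusted p = 0.00125). Its neighbour on chromosome 17, Cfb, encodes factor B, which has the same task in the alternative pathway. Cfb had 10.83, 10.94 and 11.15 in sleep-deprived mice, against 11.01, 11.05 and 11.15 in controls (-0.085 ± 0.044, adjusted p = 0.320). C4b, which encodes complement C4, was at -0.14 ± 0.070 (adjusted p = 0.309), and its close copy C4a may share probes with it. C1ra, a protease subunit of C1, was at -0.034 ± 0.074 (adjusted p = 0.880). Cfp, which encodes properdin and stabilises the alternative pathway's enzyme, was dim and varied most between mice, from 5.75 to 6.83 in sleep-deprived mice and from 5.69 to 6.62 in controls (0.16 ± 0.15, adjusted p = 0.650).

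The terminal components, which build the membrane pore, moved in both directions, with 1 higher and 1 lower of 6. C6 (probe set 17309832) had values of 10.35, 10.56 and 10.72 in sleep-deprived mice, against 10.11, 10.29 and 10.44 in controls. All 7 sleep-deprived mice were above the control mean, and 6 of 7 were above every control; mouse 10 was the exception. C6 rose by 0.32 ± 0.062, or 24.5% (limma, adjusted p = 0.00212), and was called in each of the 23 other fits. Hc, which encodes complement C5 (probe set 17384374), had 11.20, 11.27 and 11.44 in sleep-deprived mice, against 11.36, 11.46 and 11.56 in controls (-0.16 ± 0.043, limma adjusted p = 0.0256). The call of Hc was lost without sleep-deprived mouse 3 (0.0613), 5 (0.0558) or 10 (0.0511), without control mouse 8 (0.0603) or 11 (0.0628), without the trend (0.105), with every probe set tested (0.0554) and with the sample number as covariate (0.0966).

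C8a, the alpha subunit of C8, lay just outside the threshold, with 10.68, 10.79 and 10.93 in sleep-deprived mice, against 10.80, 10.95 and 11.01 in controls (-0.15 ± 0.045, limma adjusted p = 0.0517). It passed without sleep-deprived mouse 1 (0.0271), 2 (0.0454) or 13 (0.0484) and without control mouse 9 (0.0212). Its neighbour C8b, the beta subunit, was at -0.0019 ± 0.057, C8g, the gamma subunit, at 0.028 ± 0.037, and C9, which forms the ring of the pore, at -0.062 ± 0.055 (adjusted p from 0.632 to 0.993).

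Among complement regulators, 1 of 4 fell. Cd59a encodes a membrane protein that blocks pore formation on the body's own cells (probe set 17373825). It had values of 8.42, 8.55 and 8.81 in sleep-deprived mice, against 8.73, 8.97 and 9.19 in controls, with 6 sleep-deprived mice below all controls. The difference was the largest of the members, -0.36 ± 0.073, and Cd59a fell by 22% (limma, adjusted p = 0.00327). C4bp, Cfi and Cd55, which restrain the C3-cleaving enzymes, were at -0.076 ± 0.039, -0.037 ± 0.044 and -0.043 ± 0.089 (adjusted p from 0.309 to 0.869).

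**Figure D4:**
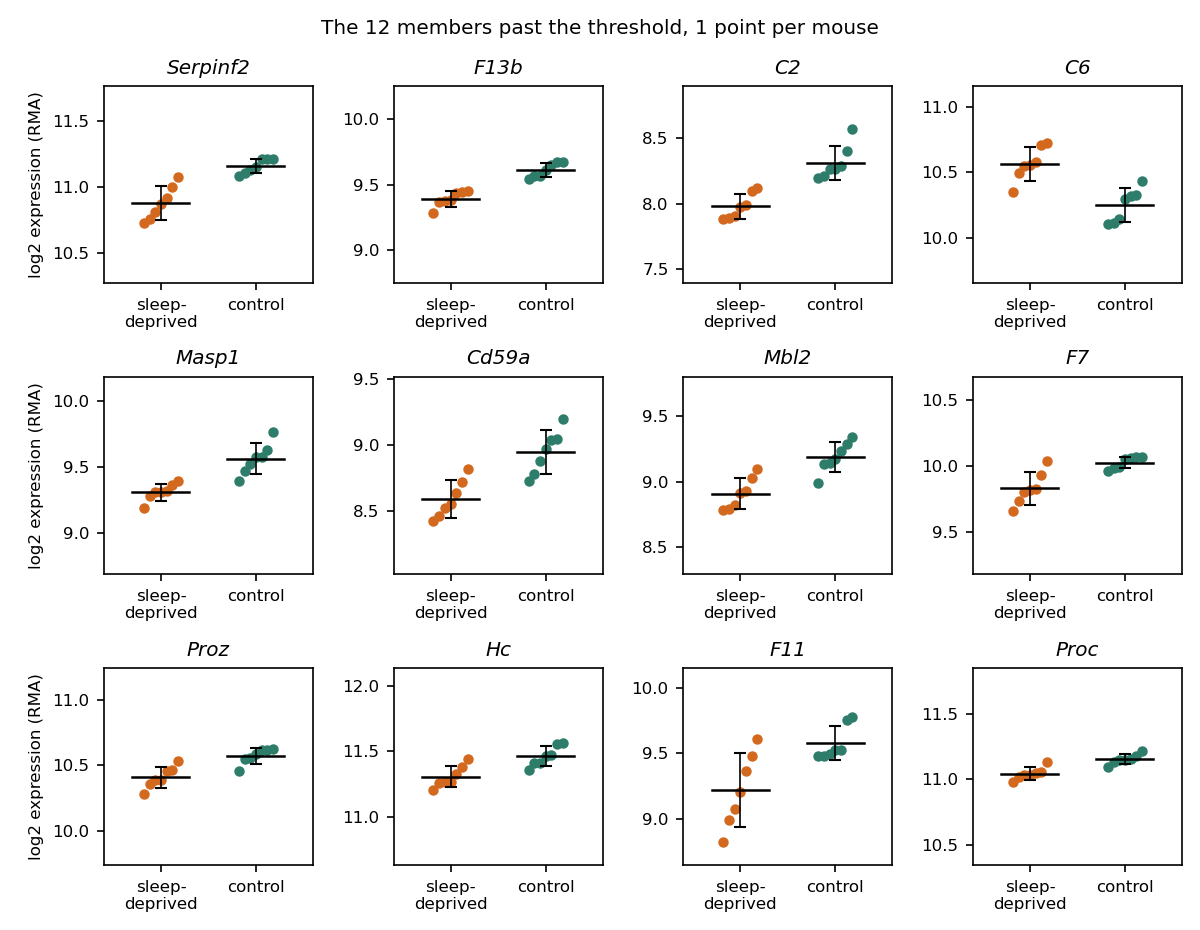
Log2 expression of the 12 called genes in each mouse, sleep-deprived left and control right; bars give the mean and SD of 7 mice, and every panel spans the same range. C6 is the gene that rose, and the spread of F11 among sleep-deprived mice is the widest.

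Over all genes, 1.79% had every sleep-deprived mouse below every control and 1.34% had every one above. Among the 41 members, 4 were of the first kind (Serpinf2, F13b, C2 and Masp1) and 0 of the second. These shares were not computed for bright genes alone, among which calls were more frequent than among all genes. The median within-group SD was 0.067 for coagulation and 0.12 for complement, against 0.15 over all genes. From a mean level of 8 upward it was 0.081 for the 36 members, against 0.10 for the 1780 genes, a difference that was not tested. The steadiest was Fgg (0.028) and the least steady Cfp (0.35).

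Promoters are shown for members that differed and for fibrinogen, as examples of what lies before genes that fell (F13b, F11, Proz), the gene that rose (C6) and genes that did not pass (Fga, Fgb). Each is the 250 bases before the RefSeq start (GRCm38.p6), written 5′ to 3′ on the gene's strand. Capitals mark matches, on either strand, to letters of factor sites searched there. These were GTTAAT (part of the site of HNF1, a hepatocyte factor), CAAAGT (core of an HNF4 element) and TTGCNNAA (C/EBP). Others were TTCNNNGAA (STAT, used by interleukin signals), CACGTG (the E-box of clock factors) and TTANGTAA. The last is a loose form of the D-box of DBP and NFIL3, since N stands for any base.
F13b, chr1:139501457-139501706, plus strand: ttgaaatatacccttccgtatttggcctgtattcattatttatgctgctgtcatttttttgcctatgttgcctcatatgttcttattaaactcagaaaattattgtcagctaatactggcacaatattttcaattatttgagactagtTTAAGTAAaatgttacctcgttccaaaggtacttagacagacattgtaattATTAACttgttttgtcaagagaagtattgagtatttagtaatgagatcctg
F11, chr8:45262032-45262281, minus strand: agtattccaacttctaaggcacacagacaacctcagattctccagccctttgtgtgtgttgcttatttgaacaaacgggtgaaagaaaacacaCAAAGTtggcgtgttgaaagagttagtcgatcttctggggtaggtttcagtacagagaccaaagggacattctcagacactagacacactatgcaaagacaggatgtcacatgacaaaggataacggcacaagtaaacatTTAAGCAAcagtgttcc
Proz, chr8:13060658-13060907, plus strand: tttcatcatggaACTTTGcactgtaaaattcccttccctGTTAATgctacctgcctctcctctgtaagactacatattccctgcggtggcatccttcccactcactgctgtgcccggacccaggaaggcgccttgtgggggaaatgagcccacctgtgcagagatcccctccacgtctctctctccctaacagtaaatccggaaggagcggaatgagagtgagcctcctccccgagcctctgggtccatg
C6, chr15:4726960-4727209, plus strand: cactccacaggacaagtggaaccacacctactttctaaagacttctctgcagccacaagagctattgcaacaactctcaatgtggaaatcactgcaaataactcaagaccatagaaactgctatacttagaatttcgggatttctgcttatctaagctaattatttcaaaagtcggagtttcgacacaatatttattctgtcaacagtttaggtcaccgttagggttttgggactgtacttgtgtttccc
Fga, chr3:83025903-83026152, plus strand: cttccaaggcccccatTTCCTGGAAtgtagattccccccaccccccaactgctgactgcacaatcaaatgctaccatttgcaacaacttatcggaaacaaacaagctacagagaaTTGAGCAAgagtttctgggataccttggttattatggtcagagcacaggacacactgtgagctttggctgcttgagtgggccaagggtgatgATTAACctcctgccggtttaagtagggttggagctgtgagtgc
Fgb, chr3:83049864-83050113, minus strand: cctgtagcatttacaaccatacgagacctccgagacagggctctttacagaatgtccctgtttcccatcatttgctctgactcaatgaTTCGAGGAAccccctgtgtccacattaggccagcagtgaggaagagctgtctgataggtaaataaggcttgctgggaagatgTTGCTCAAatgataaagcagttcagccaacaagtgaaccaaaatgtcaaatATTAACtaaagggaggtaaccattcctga

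Fga and Fgb each held an HNF1 match, a C/EBP match and a STAT match. F13b held an HNF1 match 51 to 46 bases before the start and a match to the loose D-box letters, TTAAGTAA. Proz held an HNF1 match and an HNF4 core, and F11 an HNF4 core and a C/EBP match. C6 held none of these letters in its window. Over the 32 measured members with a listed promoter, GTTAAT was present in 11 (34.4%), against 6.4% of all 32851 promoter windows of that length. CAAAGT was present in 7 (21.9%, against 12.6%), TTGCNNAA in 6 (18.8%, against 9.6%) and TTCNNNGAA in 5 (15.6%, against 7.0%). CACGTG was present in 0, against 6.0%, and TTANGTAA in 1 (3.1%, against 2.1%). Of the 8 members with a promoter that fell, 3 held GTTAAT and 0 held TTCNNNGAA. Members were counted by gene and the background by window, over all listed genes and not only those expressed in liver. The excess over that background was not tested. A match of letters is a description and not a bound site. Promoters of C2, C4b, Cfb, Cfi, Kng1, Masp1, Plg, Proc and Serping1 are not in the table used.

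Other genes of the same systems, listed beside the members, showed a mixed picture. Of 24 further coagulation and fibrinolysis genes measured, 4 rose and 2 fell, with a median difference of 0.019. Called in either direction were thus 25%, against 8.5% of all genes. Mcfd2, part of the receptor that exports factors V and VIII from the endoplasmic reticulum, rose by 0.40 ± 0.066 (limma, adjusted p = 0.000436) with no overlap between the groups. Lman1, which encodes the other part of that receptor, was not called (0.018 ± 0.041, limma adjusted p = 0.885). Vwf (0.27 ± 0.073) and Thbd (0.40 ± 0.12), which encode von Willebrand factor and thrombomodulin of endothelial cells, rose (limma, adjusted p = 0.0220 and 0.0484), as did the dim Serpina5 (0.40 ± 0.10, adjusted p = 0.0143). The 2 that fell are made by hepatocytes: Hrg, which encodes histidine-rich glycoprotein (-0.12 ± 0.033), and Hgfac, the activator of hepatocyte growth factor (-0.16 ± 0.047), at adjusted p = 0.0221 and 0.0342. Of 5 genes of the vitamin K cycle, which serves the carboxylation of factors II, VII, IX and X and of proteins C, S and Z, 0 passed (limma; 0 had an unadjusted p under 0.05), among them the carboxylase Ggcx (-0.017) and the reductase Vkorc1 (-0.049).

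Of 25 further complement genes, 1 rose and 2 fell, with a median of 0.013. This was 12% called, near the 8.5% of all genes. Cd59b, the neighbouring copy of Cd59a, was at -0.28 ± 0.071 (limma, adjusted p = 0.0150), and the copies may share probe signal. Susd4, a membrane inhibitor of complement, was at -0.44 ± 0.097 (adjusted p = 0.00602). Crp, a plasma pentraxin that can activate complement, rose by 0.20 ± 0.054 (adjusted p = 0.0248).

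In these bulk samples, fewer cells of a type and less RNA per cell cannot be told apart. Over all genes, 3.88% were called higher and 4.62% lower, and of those with a mean of at least 8, 10.8% and 15.8%. Of 10 hepatocyte markers measured, 3 were called higher (Tat at 0.41, Apoa1 at 0.12 and Cps1 at 0.11), 0 lower and 7 not at all. The mean log2 level of the 10 ran from 10.87 to 10.99 in sleep-deprived mice and from 10.76 to 10.91 in controls. Whether the number of hepatocytes differed was not tested. Albumin (Alb) was at 13.31 in both groups on average. Markers of sinusoidal endothelial cells, the source of F8, were higher at 3 of 10 (Lyve1 at 1.13, Oit3 at 0.46 and Pecam1 at 0.29), with mean levels from 7.36 to 7.77 in sleep-deprived mice and from 7.16 to 7.49 in controls. The other 7 endothelial markers were not called, and 1 of them, Kdr, was below 0 (-0.18, limma adjusted p = 0.114). The part of these markers in the results was not tested. Mean levels of Kupffer cell markers (1 of 10 higher, Cd163 at 0.88) ran from 6.26 to 7.04 in sleep-deprived mice and from 6.13 to 7.23 in controls, and those of stellate cell markers (1 of 10 higher, Rgs5 at 0.30) from 6.50 to 6.98 in sleep-deprived mice and from 6.52 to 6.86 in controls. The mean level of the neutrophil markers (0 of 8 called) ran from 2.82 to 3.01 in sleep-deprived mice and from 2.88 to 3.10 in controls, below the array medians of 3.443 to 3.491, although Csf3r alone averaged 4.53 in both groups. Adipocyte markers averaged 4.75 to 5.00 in sleep-deprived mice and 4.82 to 5.03 in controls. Of 7 measured, 1 fell (Car3, -0.47), a gene that liver also expresses, and the fat hormone gene Adipoq was at 2.62 in sleep-deprived mice and 2.46 in controls.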

How the data were processed

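Liver RNA (100 ng per sample) was labelled with the Affymetrix WT PLUS kit (labels' protocols). The authors deposited RMA values on a log2 scale, per the submitters' processing notes, for 41345 probe sets without detection calls. A version of RMA and a genome build were not found in these sources. RMA compresses differences of dim genes. Arrays have no sequencing depth; precision is limited by how many there are.

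Groups came from the sample titles, whose numbers are not shared between groups, so no pairing was made. Nothing says that each sample is a separate mouse; each is taken as 1, and p-values measure the spread between these samples. Probe sets with exactly 1 gene symbol in the platform's annotation (23521) were kept, updated by Entrez ID through RefSeq (0 symbols changed), and the brightest over all 14 arrays was used per gene, leaving 22180 genes. Each of the 41 members had 1 probe set. Sleep-deprived minus control was fitted across all genes by lmFit and trended eBayes of limma 3.58.1 (R 4.3.3), with Benjamini-Hochberg adjustment over all of them and a threshold of 0.05. The steps were tested on simulated data.

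The members and the lists were chosen with earlier results of these data known. Serping1 and Vtn were kept apart from both classes. All measured members are accounted for; values by group were given for those past the threshold, the 3 nearest outside it and F2, Fga, Fgb, Fgg and Plg, and, chosen after their values were seen, for F9, Cfb, Cfp and Mbl1. Alternatives were other variance estimates, array weights, the brighter genes alone, other uses of probe sets, other scalings, the sample number as covariate, the class of Serping1 and Vtn, and leaving out each mouse. No positions are given for probe sets.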

Additional observations from a re-analysis of the deposited data

Results flagged for a closer look

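In 5 of the 82 groups of 7 mice examined (41 genes in 2 groups each), a single mouse stood apart from the others by more than Dixon's 95% limit; chance gives about 1 in 20. Sleep-deprived mouse 10 was low for F2, at 11.61 where the next value was 11.71, and for C9, at 10.94 where the next was 11.14. Sleep-deprived mouse 3 was low for Serpind1, at 10.74 with the next at 10.83. Control mouse 9 was low for Serping1, at 11.65 with the next at 11.76, and control mouse 7 was high for Cfb, at 11.15 with the next at 11.06. None of these 5 genes was among the 12 called.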

How the results depend on the processing

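Without the intensity trend, 7 members were lower, 3 of them in coagulation, and all 8 members then called were also called with the trend. With the sample number as a covariate (mean number 5.71 in sleep-deprived and 9.29 in control mice), 2 members were higher and 7 lower, with 1 higher (F9) and 3 lower in coagulation, and the coagulation median was -0.0753. Of the 41 members, 34 were below 0 in the main fit. That count was 28 with the sample number as a covariate, 31 after centring the arrays and 32 with quantile normalization applied again. Counting Serping1 and Vtn with coagulation gave a median of -0.0827. Leaving out each mouse gave 8 to 12 lower members and 1 higher, 4 to 6 lower in coagulation and in complement, and 1541 to 1893 genes over the whole table. Fgb, whose difference was close to 0, ranged from -0.0148 to 0.00816 when a mouse was left out and changed sign after centring the arrays (0.0112) and in 8 fits that left out a mouse: 0.00565, 0.00807, 0.00316, 0.00447 and 0.00186 without sleep-deprived mouse 3, 5, 6, 10 or 13, and 0.000106, 0.00184 and 0.00816 without control mouse 4, 8 or 14. Tested alone, the brighter genes had 20.4% called and 16 members, including C8a, Serpind1 and F5. With every probe set tested, 3.77% were called. The background of genes with a level of at least 8 (26.6%) was chosen after seeing the data. Serpinf2, F13b, C2, C6, Masp1, Cd59a and Mbl2 were called in all 23 alternative fits. The causes were not tested. The table holds no detection calls, so signal over background cannot be given.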
